A study of Mus musculus with 27 samples.

Results

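Expression after 36 h of rosiglitazone was compared with expression after 12 h in mature 3T3-L1 adipocytes, across all genes. The comparison used 6 of the 27 arrays of the series, the 3 labelled 36 h and the 3 labelled 12 h, chosen by their labels and by no measured value. 3T3-L1 is a mouse preadipocyte line that forms fat cells in culture. Both groups had received 1 µM rosiglitazone dissolved in DMSO, so the drug, the cell line and the adipocyte state were common to the arrays compared, and exposure time was what differed. The remaining arrays were untreated cells at time 0 and cells treated for 0.5, 1, 2, 6, 24 or 48 h, 3 arrays per group. No array of vehicle-treated cells was used here, so time in culture and time with the drug cannot be told apart. The series' design names DMSO as the alternative treatment, but the time 0 samples carry the label No treatment, so whether they had vehicle is not known. The labels do not say whether the 3 arrays of a group came from separate cultures, so p-values measure the spread between arrays, which may be technical.

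Rosiglitazone activates PPARγ, the nuclear receptor that forms a heterodimer with RXR and turns on the genes of lipid uptake and storage in fat cells. Prolonged activation is known to give white adipocytes features of brown fat, the heat-producing fat whose markers include the lipid droplet protein CIDEA and muscle-type subunits of cytochrome c oxidase. Many adipocyte genes also follow a daily rhythm driven by the clock factors CLOCK and BMAL1 and their repressors PER and CRY. The times compared lie 24 h apart and so fall at the same phase of such a rhythm if its period is a day. Changes below are log2 differences, 36 h minus 12 h, ± SE with n = 3 arrays per group. A gene is said to be higher or lower, or called, where limma's p adjusted by the Benjamini-Hochberg method over 18781 genes was below 0.05.

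Between 12 h and 36 h, 588 genes rose and 654 fell, together 1242 of 18781 genes (6.61% called in either direction, 3.13% higher and 3.48% lower). At least 1018 of these calls were of genes brighter than the median gene, so brighter genes were called more often. Most gene lists below have a median level above that of all genes, 4.74 at 12 h, so 6.61% is a low yardstick for them. Most of the changes were small. The median size of a called change was 0.35, 134 called genes changed at least 1.5-fold (44 higher, 90 lower) and 25 at least 2-fold (9 higher, 16 lower). The median change of all genes was 0.007. The 3 arrays of one time lay beyond all 3 of the other in 3553 genes (18.9%), and in 1186 of the 1242 called genes (95.5%). Centring each array on its median raised the share of higher genes among the calls from 47.3% to 58.5%, so the balance of directions depends on the scaling. The 36 h group had the widest spread of the 9 groups, with a median SD of 0.111 against 0.096 at 12 h and a lowest value of 0.076. The number of calls was 765 without 12 h replicate 1, 692 without 12 h replicate 2 and 751 without 36 h replicate 3. With only the 6 arrays compared in the model it was 257, and 57 of the 110 called genes that are named in the text lost their call.

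**Figure D1:**
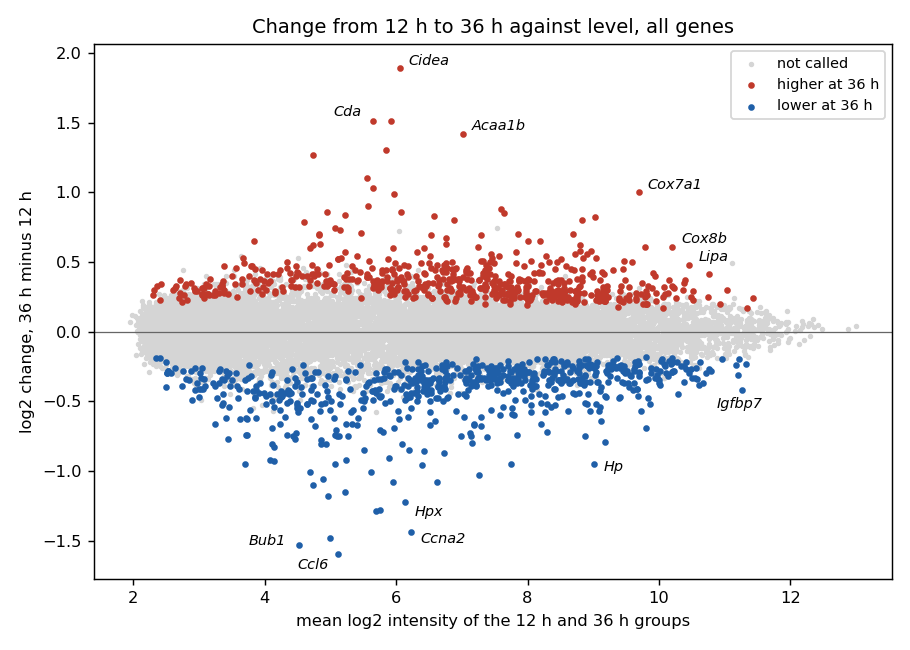
Each point is 1 of 18781 genes, with the mean log2 intensity of the 12 h and 36 h groups on the x axis and the log2 change from 12 h to 36 h on the y axis. Called genes are red (588 higher) or blue (654 lower), and Cidea, at 1.89, lies above all others while Ccl6, at -1.60, lies lowest.

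Markers of the mature adipocyte showed no call in this interval. Of 8 adipocyte markers limma called 0, and their summed linear intensity ran from 25064 to 25519 on the 12 h arrays and from 24752 to 25012 on the 36 h arrays, a slightly lower range that does not overlap the first. Pparg, the drug's receptor, stood at 11.23, 11.18 and 11.20 at 12 h and at 11.23, 11.26 and 11.25 at 36 h. Its groups overlapped, with a change of 0.046 ± 0.049 (limma adjusted p = 0.668). Adipoq, which encodes the hormone adiponectin, changed by -0.0004 ± 0.054, and the fatty acid binding protein gene Fabp4 by 0.070 ± 0.062 (limma adjusted p = 0.998 and 0.589). Lep, the leptin gene, was close to the lower end of the scale, between 3.08 and 4.12 on the 6 arrays.

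The clearest group effect was a fall of cell cycle genes. Of 21 measured genes of the cell cycle and DNA replication, 15 fell, 0 rose and 6 were not called, with a median of -0.68 against 0.007 over all genes. The share of members lower was 71.4%, against 3.48% of all genes. All 21 changes were below 0. In 17 members the 3 arrays at 36 h lay below the 3 at 12 h, as they did in 1676 of all 18781 genes. The list was chosen with earlier results of these arrays known.

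Ccna2, cyclin A2, which drives DNA synthesis and entry into mitosis, had log2 intensities of 6.97, 7.19 and 6.70 at 12 h and 5.57, 5.16 and 5.80 at 36 h. Every 36 h array lay below every 12 h array, and the fall was 2.72-fold (-1.44 ± 0.12, limma adjusted p = 7.45e-08). Bub1, a kinase of the spindle checkpoint, stood at 5.47, 5.40 and 4.99 at 12 h and at 3.53, 3.63 and 4.11 at 36 h. It fell furthest of the list, again without overlap of the groups (-1.53 ± 0.14, limma adjusted p = 1.98e-07). Mki67, which encodes the proliferation antigen Ki-67, was 5.78, 5.73 and 5.14 at 12 h and 4.10, 4.48 and 4.55 at 36 h (-1.18 ± 0.14, limma adjusted p = 6.35e-06). Replicate 3 was the lowest 12 h array for each of these 3 genes.

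Genes that copy DNA fell as well. Mcm5, a subunit of the helicase that opens replication origins, was 6.44, 6.50 and 6.08 at 12 h and 5.04, 5.02 and 5.10 at 36 h. The 36 h arrays lay close together, far below those at 12 h (-1.29 ± 0.11, limma adjusted p = 7.45e-08). Among the other subunits of that helicase, read after their values had been seen, Mcm6 changed by -0.85, Mcm3 by -0.66, Mcm4 by -0.39 and Mcm7 by -0.27. Mcm2 was not called (-0.21, limma adjusted p = 0.122), and the call of Mcm7 ended without any 1 of 4 of the 6 arrays (limma adjusted p from 0.0743 to 0.132, replicates 1 and 2 at 12 h and 2 and 3 at 36 h). Rrm2, the ribonucleotide reductase subunit that supplies DNA precursors, changed by -1.08 ± 0.12, and Pclaf, which binds the replication clamp PCNA, by -1.28 ± 0.14 (limma adjusted p = 3.8e-06 and 2.48e-06). Pcna itself, read in the same way, was not called (-0.17, limma adjusted p = 0.225).

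Genes of mitosis fell too. Top2a, the topoisomerase that untangles chromosomes, stood at 5.93, 5.97 and 5.48 at 12 h and at 4.47, 4.43 and 5.03 at 36 h, and Kif11, a spindle motor, at 5.42, 5.44 and 5.01 and then 4.03, 4.11 and 4.42. Both were lower on every 36 h array (-1.15 ± 0.13 and -1.10 ± 0.11, limma adjusted p = 4.27e-06 and 6.3e-07). Among the genes not called, also read after their values had been seen, Cdk1, the mitotic kinase, changed by -0.23 (limma adjusted p = 0.097), and Cdc20, an activator of the anaphase ubiquitin ligase, by -0.34 (limma adjusted p = 0.112).

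The cell cycle decrease was followed through 24 h. From 12 h to 24 h, 5 of the 21 genes fell, and from 24 h to 36 h 6 did, with 0 higher in either interval. Of all 18781 genes 312 and 19 fell in these intervals. Mcm5 had its drop in the first of these (-0.92 ± 0.11, limma adjusted p = 1.81e-05) and -0.36 ± 0.11 in the second (limma adjusted p = 0.217). Ccna2 was not called in the first (-0.36 ± 0.12, limma adjusted p = 0.112) and fell in the second by 1.08 on the log2 scale (SE 0.12, limma adjusted p = 7.5e-05). Without replicate 1 of every group limma called 0 genes from 24 h to 36 h, as it did with only the arrays compared, and the adjusted p of Ccna2 was then 0.103 and 0.304 at changes of -1.02 and -1.08. These intervals share the 24 h arrays with each other and an end group with the whole interval, so they are given side by side and not as separate support. Compared with untreated cells, Ccna2 was not called at 12 h (-0.092, limma adjusted p = 0.689) and was lower at 36 h by 1.54 on the log2 scale (limma adjusted p = 8.86e-10).

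Markers of preadipocytes and fibroblasts, cell types that divide in culture, were measured beside the cell cycle genes. Of 21 such markers 1 rose and 2 fell (14.3% called, against 6.61% of all genes). Their median level at 12 h was 7.15, against 4.74 over all genes, and brighter genes were called more often. The share over all genes is therefore not a like comparison for these markers. Their summed intensity was 6818 to 7202 on the 12 h arrays and 6669 to 6816 on the 36 h arrays. S100a4, a calcium-binding protein of motile fibroblasts, changed by -0.87 ± 0.11, Dlk1, which restrains adipocyte differentiation, by -0.48 ± 0.073, and the fibroblast factor Twist2 by 0.37 ± 0.080 (limma adjusted p = 2.56e-05, 0.000149 and 0.0057). On the shorter list of 7 defining markers, of which 1 fell, the sum was 1792 to 2035 at 12 h and 1459 to 1583 at 36 h, without overlap. Of the changes on that list 3 were above 0 and 4 below, with a median of -0.054. In bulk RNA, fewer cells of a type and less RNA per cell cannot be told apart, and the part of these markers in the cell cycle result was not tested.

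**Figure D2:**
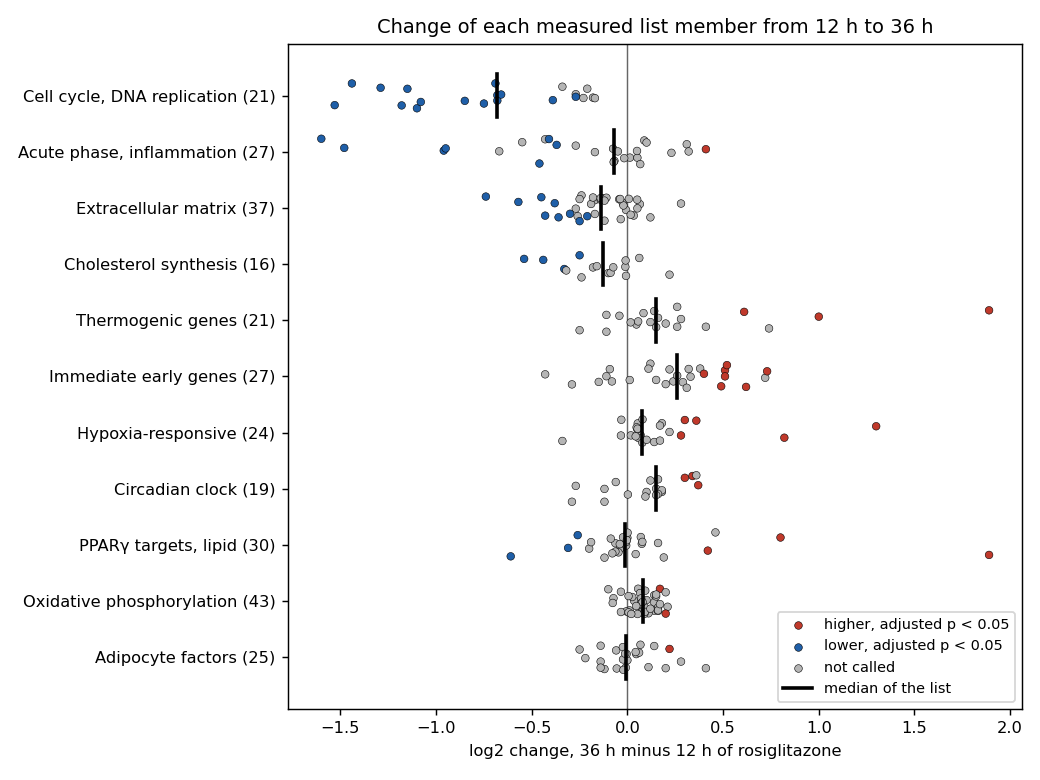
Each point is a measured member of the gene list named on the y axis (number of members in brackets), placed by its log2 change from 12 h to 36 h; red and blue points were called higher and lower, grey points were not called, and the black bar is the list's median. The cell cycle list lies wholly below 0 with a median of -0.68, while the thermogenic and immediate early lists have medians of 0.15 and 0.26.

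The promoters of 4 of the lowered cell cycle genes are shown because this group moved together. They are RefSeq windows on GRCm38.p6, and the 250 bases before the annotated start are printed in the direction of the gene, with matches in capitals. The motifs were CCAAT, the element TTTGAA (CHR, found in promoters of mitotic genes) and the E2F elements TTTGGCGC and TTTCGCGC, each searched on both strands and all picked after the fall of these genes had been seen.

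Bub1, chr2:127831860-127832109, minus strand: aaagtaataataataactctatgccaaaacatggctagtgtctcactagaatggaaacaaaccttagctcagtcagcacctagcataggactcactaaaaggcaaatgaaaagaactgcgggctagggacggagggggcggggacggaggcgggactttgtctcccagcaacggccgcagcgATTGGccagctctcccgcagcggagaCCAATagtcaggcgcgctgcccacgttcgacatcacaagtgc
Top2a, chr11:99024190-99024439, minus strand: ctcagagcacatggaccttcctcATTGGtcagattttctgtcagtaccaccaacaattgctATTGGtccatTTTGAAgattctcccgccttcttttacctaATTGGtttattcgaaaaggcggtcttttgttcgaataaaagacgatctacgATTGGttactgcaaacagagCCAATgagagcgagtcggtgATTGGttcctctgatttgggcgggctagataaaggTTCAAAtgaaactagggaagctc
Mki67, chr7:135716380-135716629, minus strand: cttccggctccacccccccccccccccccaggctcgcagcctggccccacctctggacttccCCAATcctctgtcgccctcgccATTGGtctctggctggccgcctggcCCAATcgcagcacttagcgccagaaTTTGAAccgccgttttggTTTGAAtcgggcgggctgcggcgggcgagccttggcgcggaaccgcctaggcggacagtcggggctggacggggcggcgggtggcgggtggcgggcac
Mcm5, chr8:75109259-75109508, plus strand: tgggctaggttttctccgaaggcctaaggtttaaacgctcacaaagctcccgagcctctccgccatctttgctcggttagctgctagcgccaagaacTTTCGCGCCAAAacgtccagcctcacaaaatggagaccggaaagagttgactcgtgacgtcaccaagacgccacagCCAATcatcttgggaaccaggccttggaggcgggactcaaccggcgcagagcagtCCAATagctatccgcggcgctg

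In these stretches Top2a holds 6 CCAAT and 2 CHR matches, Mki67 holds 3 and 2, and Bub1 holds 2 CCAAT matches and no CHR. Mcm5 holds 2 CCAAT matches and 1 match of each E2F element, and those E2F matches overlap each other. Over the whole windows, 250 bases before to 50 after the start, CCAAT occurred in 12 of 12 windows of the 11 lowered list genes that matched a window by symbol, against 37.4% of all 32851 windows. TTTGAA occurred in 5 of the 12 windows (41.7%) against 17.9% of all. TTTGGCGC and TTTCGCGC each occurred in 3 of the 12 windows (25.0%) against 0.514% and 0.323%. Over all cell cycle list members with a window, lowered or not, CCAAT occurred in 17 of 18 windows, TTTGAA in 8 (44.4%), TTTGGCGC in 3 and TTTCGCGC in 4. Among windows of all lower genes CCAAT occurred in 44.8%. It was not particular to the cell cycle list, with 12 of 15 windows of the cholesterol list described below (80.0%). TTTGGCGC occurred in 2.70% of windows of lower genes and 1.48% of those of higher genes, against 0.728% for all genes tested. For TTTCGCGC these shares were 1.43%, 0.493% and 0.447%. Motifs fixed in the plan were searched too. In the 18 windows of the cell cycle list TCAAGGTCA, CACGTG, TTATGNAA, TCACNCCAC and GCGCATGC each had 0 matches. TGACGTCA occurred in 2 of them (11.1%, against 1.79% of all windows) and ACGTG in 5 (27.8%, against 19.6%). The sterol element TCACNCCAC occurred in 1 of 15 windows of the cholesterol list (6.67%, against 1.24%). A match is a run of letters and not evidence of binding.

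Some genes of brown and beige fat rose. Of 21 measured thermogenic genes 3 were higher, Cidea, Cox7a1 and Cox8b, and 0 were lower, with a median of 0.15. The share of members called was 14.3%, against 6.61% of all genes. Under all but 1 of the other choices of model or arrays, 3 or 4 were higher and 0 lower. The exception was the model that held only genes above the median mean intensity. There 12 of the 21 stayed in, of which 7 were higher and 0 lower (median 0.27). That model called more genes of any kind, 1505 against 1242, although it held fewer genes. Cidea had the largest rise of all genes called. Its log2 intensities were 4.80, 5.20 and 5.32 at 12 h and 7.06, 6.91 and 7.02 at 36 h, a 3.71-fold difference with no overlap (1.89 ± 0.12, limma adjusted p = 8.35e-10). At 12 h Cidea was not called against untreated cells (0.038, limma adjusted p = 0.891), and at 36 h it was above them by 1.93 (limma adjusted p = 2.44e-11). It rose from 12 h to 24 h (1.10 ± 0.12, limma adjusted p = 1.45e-05) and again from 24 h to 36 h (0.79 ± 0.12, limma adjusted p = 0.00483). The second call ended without any 1 replicate number of every group (limma adjusted p from 0.103 to 0.107, at 0.68 to 0.90) and with only the arrays compared (0.167).

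The cytochrome c oxidase subunits moved in the same direction. Cox7a1, the muscle and brown fat form of subunit VIIa, was 8.97, 9.33 and 9.28 at 12 h and 10.31, 10.09 and 10.17 at 36 h. The rise was 2.00-fold and every 36 h array was higher (1.00 ± 0.089, limma adjusted p = 1.52e-07). Cox8b, the corresponding form of subunit VIII, was 9.83, 9.97 and 9.91 at 12 h and 10.59, 10.43 and 10.52 at 36 h (0.61 ± 0.081, limma adjusted p = 2.79e-05). Ucp1, the uncoupling protein that defines brown fat, lay between 2.60 and 2.97 on all 6 arrays, near the lowest values of the table, and was not called (0.16 ± 0.086, limma adjusted p = 0.294). Ppargc1a, the coactivator of mitochondrial biogenesis, was not called either (0.084 ± 0.14, limma adjusted p = 0.795). Elovl3, a fatty acid elongase of brown fat, was 7.00, 7.12 and 7.38 at 12 h and 8.22, 7.94 and 7.56 at 36 h, which did not overlap but missed the threshold (0.74 ± 0.24, limma adjusted p = 0.062).

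General mitochondrial genes held few calls and small changes. Of 43 subunits of oxidative phosphorylation 2 rose and 0 fell (4.65% called, against 6.61% of all genes, median 0.079). Of the 43 changes 37 were above 0, as were 9790 of the 18781 over all genes. The 2 called were Ndufs3, of complex I (0.20 ± 0.052, limma adjusted p = 0.0191), and Cyc1, of complex III (0.17 ± 0.053, limma adjusted p = 0.0482). The call of Ndufs3 ended without replicate 1 at 12 h or replicate 3 at 36 h (limma adjusted p = 0.0835 and 0.0796), and that of Cyc1 without any array but 36 h replicate 2 (from 0.0713 to 0.132). Of 15 genes of the tricarboxylic acid cycle limma called 0, with Cs, citrate synthase, at 0.17 (limma adjusted p = 0.0846). Of 18 genes of mitochondrial fatty acid oxidation 1 rose (5.56% called), Hadhb, a subunit of the trifunctional protein (0.29 ± 0.073, limma adjusted p = 0.0153). Its call ended without 12 h replicate 3 (limma adjusted p = 0.0579).

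Several of the largest increases were in enzymes and transporters outside these lists. Cda, cytidine deaminase of pyrimidine salvage, stood at 4.65, 4.97 and 5.05 at 12 h and at 6.74, 6.15 and 6.30 at 36 h (1.51 ± 0.16, limma adjusted p = 1.16e-06). Car6, a secreted carbonic anhydrase, was 5.08, 4.92 and 5.51 and then 6.91, 6.81 and 6.32 (1.51 ± 0.20, limma adjusted p = 2.48e-05). Neither gene's groups overlapped. Aqp8, a water channel, was 4.17, 4.08 and 4.02 at 12 h and 5.53, 5.36 and 5.21 at 36 h (1.27 ± 0.11, limma adjusted p = 1.59e-07). Slc36a2, a proton-coupled amino acid transporter, rose by 0.88 ± 0.11, and Ampd3, AMP deaminase, by 1.03 ± 0.19 (limma adjusted p = 1.79e-05 and 0.000913). Depp1, a FOXO-induced regulator of autophagy, rose by 1.10 ± 0.13, the phosphatase-like protein gene Pald1 by 0.99 ± 0.10 and Mreg, melanoregulin, by 0.90 ± 0.13 (limma adjusted p = 5.11e-06, 4.35e-07 and 5.3e-05).

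Peroxisomal fatty acid oxidation was split. Of 16 measured genes 2 rose and 1 fell (18.8% called, against 6.61% of all genes, median -0.022). Acaa1b, a thiolase that ends each round of peroxisomal oxidation, was 6.31, 6.30 and 6.30 at 12 h and 7.79, 7.65 and 7.74 at 36 h. The arrays of each time were nearly equal and the 2.68-fold rise separated them (1.42 ± 0.20, limma adjusted p = 5.87e-05), with the limit that the near-identical paralog Acaa1a could be read by the same probes. Abcd2, a transporter of very long chain fatty acids into peroxisomes, fell by 0.66 on the log2 scale (SE 0.13, limma adjusted p = 0.00199). Decr2, a peroxisomal reductase for unsaturated fatty acids, rose by 0.27 ± 0.068 (limma adjusted p = 0.0157), a call that ended without 12 h replicate 1, 36 h replicate 1 or 36 h replicate 3 (limma adjusted p from 0.0545 to 0.0775).

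PPARγ targets of lipid storage showed no common direction. Of 30 measured 3 rose and 3 fell (20.0% called, median -0.015, or 0.0050 with centred arrays). From untreated to 6 h, an interval that shares no array with 12 h or 36 h, 17 were higher and 1 lower. That interval held more calls among all genes too, 8.39% higher and 8.18% lower against 3.13% and 3.48% from 12 h to 36 h. The 3 that rose were Cidea, Pdk4 and Hilpda. Pdk4, a kinase that limits glucose oxidation, was 8.53, 8.36 and 8.40 at 12 h and 9.14, 9.50 and 9.06 at 36 h (0.80 ± 0.11, limma adjusted p = 2.79e-05). Hilpda, a lipid droplet protein that inhibits triglyceride breakdown, rose by 0.42 ± 0.093 and Dgat2, which makes triglyceride, changed by -0.31 ± 0.062 (limma adjusted p = 0.00608 and 0.00323). Angptl4, Pck1 and Plin1, which encode a lipase inhibitor, a glyceroneogenic enzyme and a lipid droplet coat protein, changed by -0.033, 0.075 and -0.040 (limma adjusted p = 0.863, 0.782 and 0.721). The monoglyceride lipase gene Mgll, lower by 0.61, lost its call without 12 h replicate 1 or 2 or 36 h replicate 2 or 3 (limma adjusted p from 0.0706 to 0.19), and that of G0s2, an inhibitor of adipose triglyceride lipase, without the same arrays (limma adjusted p from 0.0637 to 0.109).

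Lipid synthesis genes divided in the same way. Of 19 genes of de novo lipogenesis 2 rose and 2 fell (21.1% called, against 6.61% of all genes, median 0.030). Acacb, the mitochondrial acetyl-CoA carboxylase whose product restrains fatty acid oxidation, was 7.04, 7.20 and 7.30 at 12 h and 7.70, 7.61 and 7.72 at 36 h (0.50 ± 0.081, limma adjusted p = 0.000317). Its cytosolic counterpart Acaca, which feeds fatty acid synthesis, changed by -0.18 ± 0.050 (limma adjusted p = 0.0289), a call that ended without 12 h replicates 1 or 3 or 36 h replicates 1 or 3 (limma adjusted p from 0.0745 to 0.12). Elovl6, which elongates palmitate, was 7.13, 6.90 and 6.71 at 12 h and 6.30, 6.26 and 6.26 at 36 h, lower on every array (-0.64 ± 0.12, limma adjusted p = 0.00163). Mlxipl, the glucose-responsive factor ChREBP, rose by 0.31 ± 0.067 (limma adjusted p = 0.00546).

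Of 16 genes of cholesterol synthesis and uptake 4 fell and 0 rose (25.0% called, against 6.61% of all genes, median -0.13). By 6 h 11 of the 16 had fallen, as had 8.18% of all genes. Idi1, isopentenyl diphosphate isomerase, was 9.47, 9.44 and 9.23 at 12 h and 8.64, 9.10 and 8.80 at 36 h, without overlap (-0.54 ± 0.12, limma adjusted p = 0.00767). Stard4, a sterol carrier, was 6.70, 6.70 and 6.85 and then 6.28, 6.31 and 6.33 (-0.44 ± 0.10, limma adjusted p = 0.00572). The smaller falls of Hmgcs1, the HMG-CoA synthase (-0.33), and Dhcr7, the last reductase of the pathway (-0.25), lost their calls without several single arrays. For Hmgcs1 these were replicates 1 and 2 at 12 h and 1 and 3 at 36 h (limma adjusted p from 0.0581 to 0.118), and for Dhcr7 replicate 1 at 12 h and 2 and 3 at 36 h (limma adjusted p from 0.0664 to 0.0856). Idi1 lost its call without replicate 1 or 2 of every group and with only the arrays compared, and Stard4 without replicate 2. The number of lower members was 3, 0 and 2 without replicate 1, 2 or 3 of every group, and 1 with only the 6 arrays compared.

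Acute-phase and inflammatory genes fell in part. Of 27 measured 7 fell and 1 rose (29.6% called, against 6.61% of all genes, median -0.072). Ccl6, a chemokine that attracts monocytes, fell furthest of all genes called. It was 5.96, 6.00 and 5.75 at 12 h and 3.98, 4.37 and 4.58 at 36 h, a 3.03-fold difference without overlap (-1.60 ± 0.24, limma adjusted p = 0.000129). Orm2, an acute-phase glycoprotein gene whose probes may also read its paralog Orm1, was 5.89, 6.04 and 5.30 at 12 h and 4.21, 4.12 and 4.46 at 36 h (-1.48 ± 0.17, limma adjusted p = 5.32e-06). Hp, which encodes the haemoglobin scavenger haptoglobin, was 9.51, 9.59 and 9.38 and then 8.66, 8.38 and 8.58, lower on every array (-0.95 ± 0.088, limma adjusted p = 1.94e-07).

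Cfb, complement factor B, followed at 6.95, 6.66 and 7.03 and then 6.05, 5.86 and 5.86 (-0.96 ± 0.10, limma adjusted p = 6.3e-07). Hpx, which encodes the haem scavenger hemopexin and was not on the list, fell from 6.84, 6.73 and 6.67 to 5.62, 5.48 and 5.48 (-1.22 ± 0.12, limma adjusted p = 6.3e-07). Cxcl12, a chemokine for CXCR4-bearing cells, changed by -0.41 ± 0.083 (limma adjusted p = 0.00291). From 12 h to 24 h 7 genes of the inflammatory list fell, and from 24 h to 36 h 1 did. Of all 18781 genes 312 and 19 fell in these intervals, so the second held few calls of any kind. Hp went down by 1.05 on the log2 scale in the first of these (SE 0.088, limma adjusted p = 1.73e-07) and changed by 0.10 ± 0.088 in the second (limma adjusted p = 0.728).

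Macrophage markers were measured because macrophages make several of these products. Their median level was near the lower end of the scale, 3.29 at 12 h and 3.37 at 36 h. Cd68 and Lyz2 lay above it and moved in opposite directions. Their summed intensity over 6 genes was 78.0 to 82.7 on the 12 h arrays and 82.5 to 88.7 on the 36 h arrays. Of the 6, Lyz2, lysozyme, which may share probes with its paralog Lyz1, fell from 4.27, 4.76 and 4.54 to 3.77, 3.50 and 3.85 (-0.81 ± 0.17, limma adjusted p = 0.00443). Cd68, a lysosomal membrane protein, rose from 4.82, 4.22 and 4.40 to 5.23, 5.14 and 5.16 (0.70 ± 0.11, limma adjusted p = 0.000351). The part of these markers in the inflammatory result was not tested. Of 4 endothelial markers limma called 0 (summed intensity 32.4 to 34.9 at 12 h and 34.5 to 37.9 at 36 h), and of 4 skeletal muscle markers 1, the intermediate filament gene Des (0.47 ± 0.10, limma adjusted p = 0.00546; summed intensity 239 to 245 and 311 to 349).

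Extracellular matrix genes fell where they changed. Of 37 measured 9 were lower and 0 higher (24.3% called, against 6.61% of all genes, median -0.14). In 14 members every 36 h array lay below every 12 h array, as it did in 1676 of all 18781 genes. Pcolce2, an enhancer of procollagen processing, was 5.19, 5.65 and 5.51 at 12 h and 4.66, 4.62 and 4.83 at 36 h (-0.74 ± 0.12, limma adjusted p = 0.000339). Dcn, which encodes the collagen-binding proteoglycan decorin, was 9.38, 9.55 and 9.20 and then 8.68, 8.87 and 8.86 (-0.57 ± 0.10, limma adjusted p = 0.00067). Podn, a related small proteoglycan outside the list, was 7.15, 7.04 and 7.29 and then 6.32, 5.82 and 6.09 (-1.08 ± 0.10, limma adjusted p = 3.62e-07). None of these 3 genes had overlapping groups. Timp2, an inhibitor of matrix metalloproteinases, changed by -0.43 ± 0.088 and Pcolce, the other procollagen enhancer, by -0.38 ± 0.073 (limma adjusted p = 0.00323 and 0.00214). The number of lower members was 5 without 12 h replicate 1, 6 without 36 h replicate 1 or 3, and 7 to 10 without each of the other arrays. It was 2 without replicate 2 of every group, 3 without replicate 3 and 2 with only the 6 arrays compared. The summed intensity of the 7 preadipocyte and fibroblast markers given above was also lower at 36 h without overlap. Of their changes, though, 3 were above 0 and 4 below, and their part in the matrix result was not tested.

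Of 16 actin and smooth muscle genes 3 fell and 0 rose (18.8% called, against 6.61% of all genes, median -0.054). Flna, the actin cross-linker filamin A, was 8.64, 8.76 and 8.54 at 12 h and 8.17, 7.79 and 7.82 at 36 h (-0.72 ± 0.085, limma adjusted p = 5.11e-06). Acta2, smooth muscle actin, was 8.38, 8.90 and 8.34 and then 8.06, 7.88 and 7.71, lower on every array (-0.66 ± 0.12, limma adjusted p = 0.00125). Vcl, which encodes the adhesion protein vinculin, changed by -0.32 ± 0.056 (limma adjusted p = 0.000583). The summed intensity of the 4 smooth muscle markers, Acta2 among them, was 370 to 535 at 12 h and 265 to 313 at 36 h.

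Some immediate early genes, which answer within minutes to growth factors and stress, rose. Of 27 measured 7 were higher, 0 lower and 20 not called (median 0.26, with 6 changes below 0). The share called was 25.9%, against 6.61% of all genes. From untreated to 6 h 17 of the 27 had fallen and 0 had risen, against 8.18% lower and 8.39% higher among all genes. Jun, a subunit of the AP-1 transcription factor, was 8.29, 8.12 and 8.36 at 12 h and 8.78, 8.72 and 8.83 at 36 h (0.52 ± 0.073, limma adjusted p = 5.25e-05). Jund, another AP-1 subunit, was 7.02, 6.89 and 7.27 and then 7.77, 7.39 and 7.54 (0.51 ± 0.091, limma adjusted p = 0.000858). In both every 36 h array was above every 12 h array. Dusp1, a phosphatase that switches off MAP kinases and is induced by glucocorticoids, rose by 0.62 ± 0.13, Junb by 0.73 ± 0.17 and the small Maf factor gene Maff by 0.49 ± 0.11 (limma adjusted p = 0.00498, 0.00883 and 0.00633). The call of Junb ended without 12 h replicate 2 (limma adjusted p = 0.0536) or 36 h replicate 3 (0.0513), and that of Maff without 36 h replicate 3 (0.0522). The number of higher members was 4 without 12 h replicate 2 or 36 h replicate 3, and 5 to 8 without each of the other arrays. It was 2 without replicate 2 of every group, 4 without replicate 1 and 4 with only the 6 arrays compared.

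Of 24 hypoxia-responsive genes, which the factor HIF turns on when oxygen is short, 5 rose and 0 fell (median 0.079). The share called was 20.8%, against 6.61% of all genes. Car9, a carbonic anhydrase of the cell surface, was 5.15, 4.96 and 5.46 at 12 h and 6.69, 6.52 and 6.25 at 36 h, a 2.46-fold rise without overlap (1.30 ± 0.12, limma adjusted p = 1.83e-07). Ndrg1, a stress-induced gene, was 8.58, 8.38 and 8.88 and then 9.59, 9.43 and 9.30 (0.82 ± 0.14, limma adjusted p = 0.000406). Vegfa, the angiogenic growth factor, overlapped between the times (0.053 ± 0.073, limma adjusted p = 0.75). The other 3 calls, of Egln1, Ak4 and P4ha2, were of 0.28 to 0.36 and ended without several single arrays. For the oxygen-sensing hydroxylase gene Egln1 these were 12 h replicate 2 and 36 h replicates 1 and 2 (limma adjusted p from 0.0539 to 0.152). For P4ha2, which hydroxylates collagen, they were 12 h replicate 2 and each 36 h array (from 0.065 to 0.261), and for the adenylate kinase gene Ak4 all but 12 h replicate 1 (from 0.0573 to 0.181). The RefSeq promoter of Car9 on GRCm38.p6 is shown, as the list member that rose most, with the core HIF element ACGTG, searched on both strands and here in its reverse orientation, in capitals.

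Car9, chr4:43506776-43507025, plus strand: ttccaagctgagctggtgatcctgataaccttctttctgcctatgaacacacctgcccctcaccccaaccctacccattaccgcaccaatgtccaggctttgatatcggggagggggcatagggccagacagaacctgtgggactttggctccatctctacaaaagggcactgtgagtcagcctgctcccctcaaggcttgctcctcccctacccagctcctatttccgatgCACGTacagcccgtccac

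This match starts 18 bases before the annotated start. ACGTG, which is contained in the E-box CACGTG, occurred in 19 of 33 windows of the list (57.6%) and in 19.6% of all windows. Among windows of all genes higher at 36 h it occurred in 26.9%, and among those of lower genes in 23.8%.

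**Figure D3:**
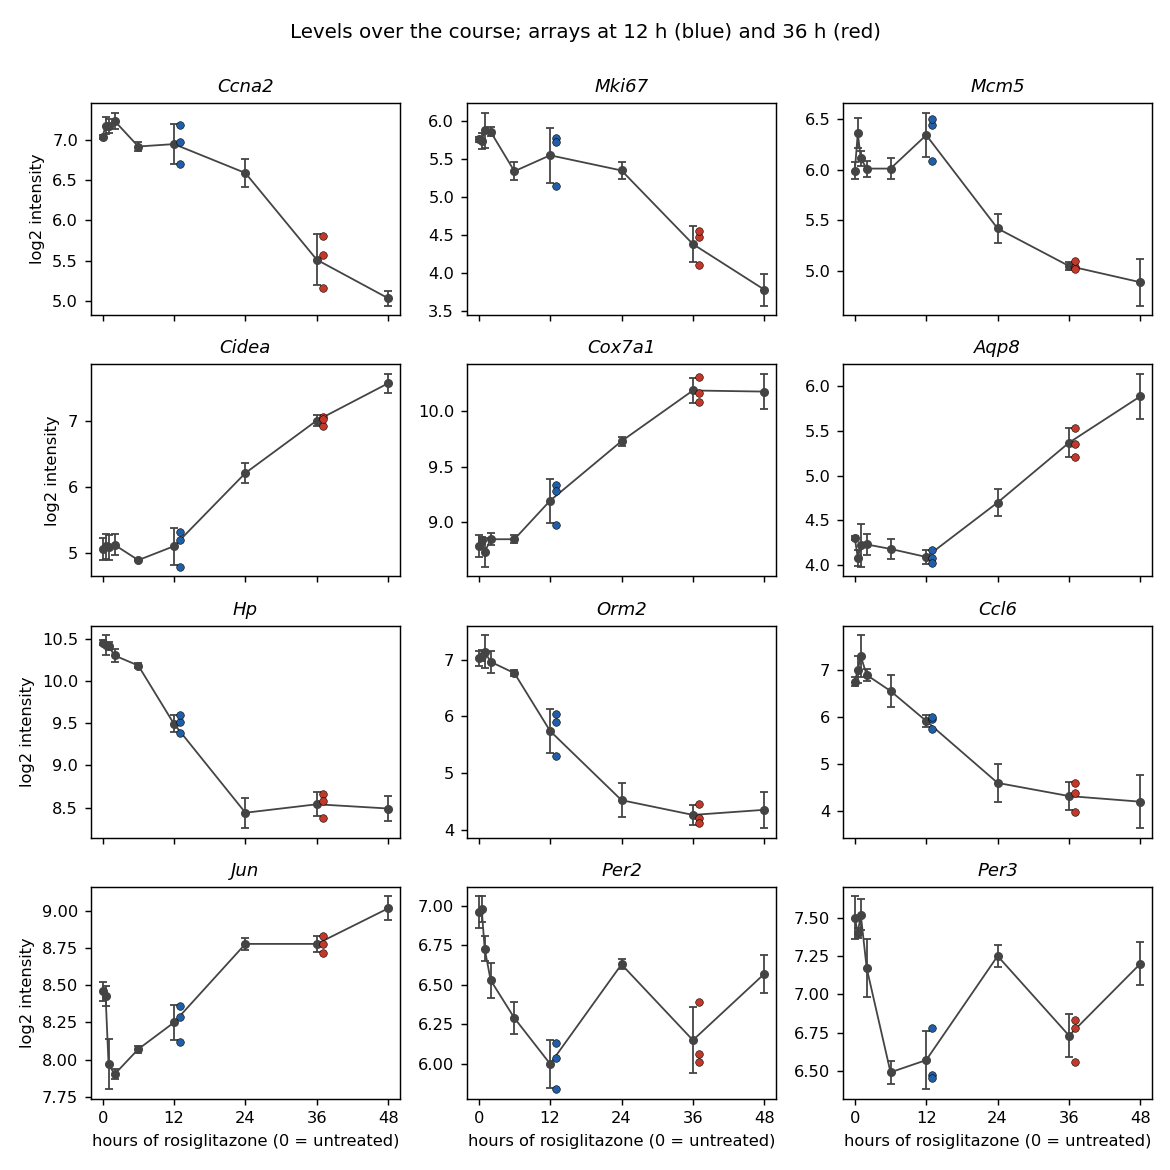
Mean log2 intensity ± SD of 3 arrays (grey points and bars) is plotted against hours of rosiglitazone for 12 genes, with the individual arrays at 12 h in blue and at 36 h in red, set slightly to the right. Ccna2 falls from 24 h on, Hp is already low at 24 h, Cidea and Aqp8 rise after 12 h, and Per2 and Per3 are low at 12 h and 36 h and higher at 24 h and 48 h.

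Of 19 measured clock genes 3 rose, 0 fell and 16 were not called between the times (median 0.15). That is 15.8% called, against 6.61% of all genes. The called higher members numbered 0 without 12 h replicate 2 or 36 h replicate 3, 1 without 12 h replicate 1 or 36 h replicate 1, and also 0 with only the 6 arrays compared. Per2, a repressor of the clock, was 6.04, 5.84 and 6.13 at 12 h and 6.06, 6.01 and 6.39 at 36 h, with overlapping groups (0.15 ± 0.094, limma adjusted p = 0.386). Per3, its relative, was 6.47, 6.45 and 6.78 and then 6.56, 6.78 and 6.83, again overlapping (0.16 ± 0.10, limma adjusted p = 0.402). Per2 rose by 0.63 ± 0.094 from 12 h to 24 h (limma adjusted p = 0.000306) and fell by 0.48 from 24 h to 36 h (SE 0.094, limma adjusted p = 0.0253). Per3 did so by 0.68 ± 0.10 (limma adjusted p = 0.000306) and by -0.52 ± 0.10 (limma adjusted p = 0.0252). The falls after 24 h lost their call without replicate 1 or 2 of every group (limma adjusted p from 0.242 to 0.303), with the replicate block (0.0631 for each) and with only the arrays compared (0.479 and 0.311).

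Npas2, an activator that can stand in for CLOCK, ran the other way from 12 h to 24 h (-0.77 ± 0.11, limma adjusted p = 0.000166). It was not called from 24 h to 36 h (0.48 ± 0.11, limma adjusted p = 0.0946) or from 12 h to 36 h (-0.29 ± 0.11, limma adjusted p = 0.111). Arntl, which encodes BMAL1, changed by 0.10 ± 0.078 from 12 h to 36 h, Clock by -0.12 ± 0.10, Per1 by 0.36 ± 0.12, Nr1d2 by 0.16 ± 0.12, Tef by 0.12 ± 0.083 and Hlf by 0.094 ± 0.10, with limma adjusted p from 0.0652 for Per1 to 0.671 for Hlf. The 3 calls were small. Cry1, a repressor partner of PER, rose by 0.34 ± 0.086, Nfil3, a repressor of D-box genes, by 0.30 ± 0.081 and Usp2, a rhythmic deubiquitinase, by 0.37 ± 0.10 (limma adjusted p = 0.0154, 0.0221 and 0.0246). Each call ended without some single arrays. For Cry1 these were 12 h replicates 1 and 2 and 36 h replicate 3 (limma adjusted p from 0.0613 to 0.105), for Nfil3 12 h replicate 2 and 36 h replicates 1 and 3 (from 0.0522 to 0.163), and for Usp2 12 h replicates 1 and 2 and 36 h replicates 1 and 3 (from 0.0778 to 0.136).

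The whole interval held more calls than its parts. From 12 h to 24 h 550 genes changed (2.93%, 238 higher and 312 lower), and from 24 h to 36 h 29 did (0.154%, 10 higher and 19 lower). Without replicate 1, 2 or 3 of every group the first of these counts was 243, 32 and 186. The count from 24 h to 36 h rests heavily on single replicates, with limma calling 0 genes without replicate 1 of every group (1528 at an unadjusted p under 0.05), and 1 and 10 without replicates 2 and 3. All of these comparisons share arrays with the interval from 12 h to 36 h.

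All genes were then sorted by their early change, from untreated to 6 h, which shares no array with the times compared. At 6 h 1575 genes were higher than in untreated cells (8.39%) and 1536 were lower (8.18%). Together these are 3111 genes, and the count was 2310, 1503 and 1648 without replicate 1, 2 or 3 of every group. Centring the arrays changed the split to 2877 higher and 883 lower. Of those that had risen, 158 (10.0%) were lower at 36 h than at 12 h and 43 (2.73%) were higher. Of those that had fallen, 147 (9.57%) were higher and 89 (5.79%) lower. Among the 15670 genes not called at 6 h, 398 (2.54%) were higher and 407 (2.60%) lower. With centred arrays the shares were 5.04% lower and 3.13% higher among the genes that had risen, and 13.7% higher and 4.87% lower among those that had fallen. Seen from the other side, with the arrays as deposited, 24.2% of the 654 lower genes had risen by 6 h and 25.0% of the 588 higher genes had fallen. Jun was of the second kind: it had fallen by 0.40 at 6 h (limma adjusted p = 0.000347). Pdk4 was called higher at both, by 0.84 at 6 h (limma adjusted p = 3.65e-06) and by 0.80 from 12 h to 36 h.

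**Figure D4:**
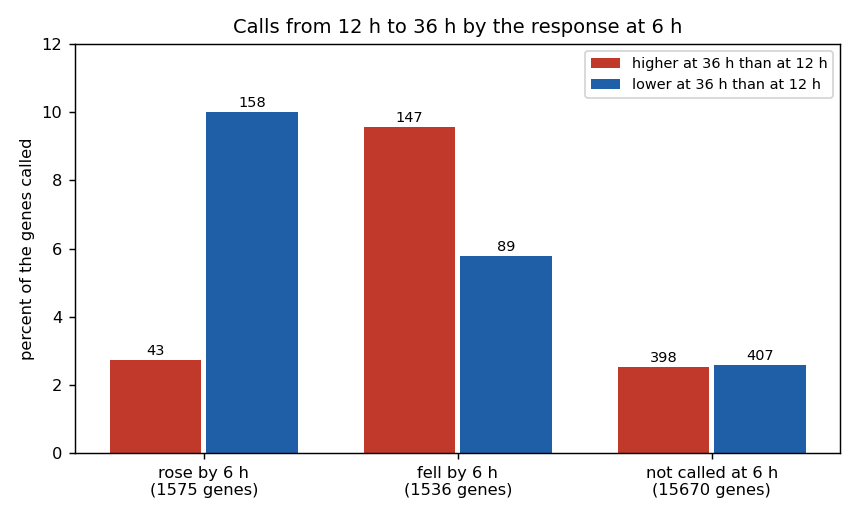
Bars give the percentage of genes called higher (red) or lower (blue) from 12 h to 36 h, among genes that had risen, fallen or not been called from untreated to 6 h, with the number of genes above each bar. Genes that had risen by 6 h were lower at 36 h in 10.0% of cases, and genes that had fallen were higher in 9.57%; with centred arrays these shares were 5.04% and 13.7%.

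The step from 24 h to 48 h is the other pair of times a full day apart in the late course, and it shares no array with 12 h or 36 h. It held fewer calls, 274 genes (1.46%), of which 134 were higher and 140 lower (0.745%). Without replicate 1, 2 or 3 of every group the count was 134, 40 and 46. In both steps 129 genes were called, which is 10.4% of the calls from 12 h to 36 h and 47.1% of those from 24 h to 48 h. Of these 128 had the same direction (47 higher, 81 lower). The exception, Tuba8, a tubulin gene whose probes may read other tubulins, rose by 0.25 and then changed by -0.37 (limma adjusted p = 0.0391 and 0.00991), and its first call ended without any array but 12 h replicate 2 (limma adjusted p from 0.0664 to 0.134). Of the 588 genes called higher, 489 also had a change above 0 from 24 h to 48 h, where 54.7% of all genes did, and of the 654 called lower, 531 had a change below 0. The sizes were smaller, with medians of 0.33 and then 0.12 for the higher genes and -0.36 and then -0.13 for the lower ones. These genes were selected by their calls in the first step, so the smaller medians cannot show that the response weakened. Over the 1242 genes called from 12 h to 36 h the changes of both steps correlated with r = 0.76, and over all 18781 genes with r = 0.42, as descriptions across genes, which are not independent replicates.

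**Figure D5:**
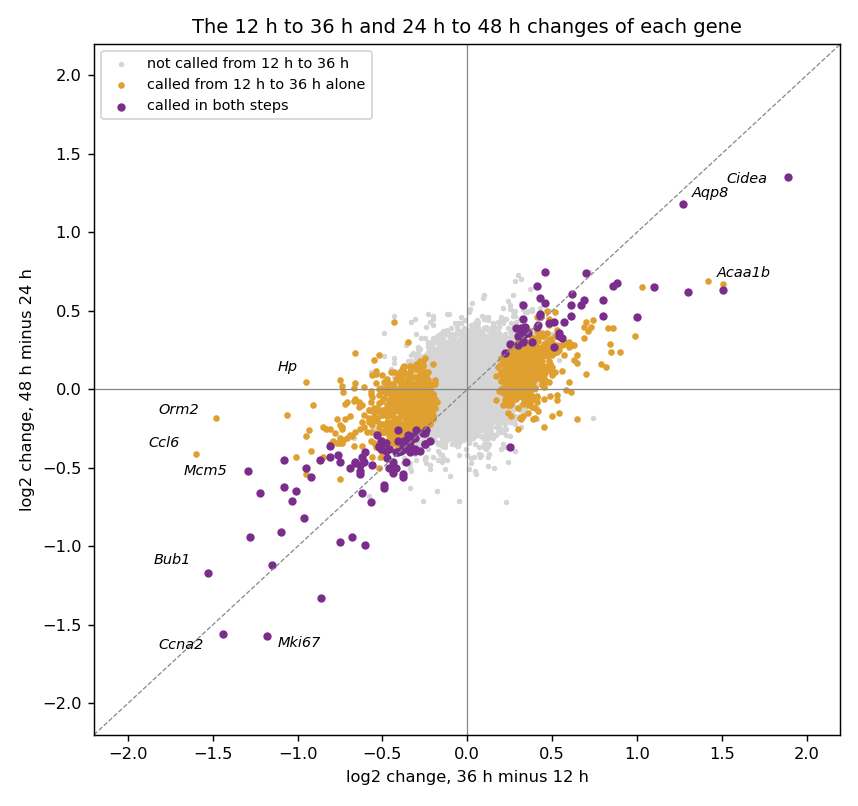
Each point is a gene, with its log2 change from 12 h to 36 h on the x axis and from 24 h to 48 h on the y axis; the dashed line marks equal change. Purple points (129 genes) were called in both steps, and Cidea, Aqp8, Bub1, Ccna2 and Mki67 lie far out in both, while Hp and Orm2 lie near 0 on the y axis.

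Cell cycle genes fell in the second step too, and a few thermogenic genes rose. Of the 21 cell cycle genes 12 fell from 24 h to 48 h and 0 rose (median -0.50). Ccna2 changed by -1.56 ± 0.12 there and Mki67 by -1.57 ± 0.14 (limma adjusted p = 4.57e-08 and 3.54e-07). Of the 21 thermogenic genes 3 rose and 0 fell, with a median of 0.045. Cidea rose by 1.35 ± 0.12, Cox7a1 by 0.46 ± 0.089 and Cox8b by 0.54 ± 0.081 (limma adjusted p = 4.13e-07, 0.00835 and 0.000722), and Aqp8 by 1.18 ± 0.11 (6.89e-07). Of the 27 inflammatory genes 1 fell in that step, and Hp changed by 0.049 ± 0.088 (limma adjusted p = 0.852). Whether a gene's change differed between the steps was tested directly, and 22 genes passed (0.117%), 16 with the more positive change in the later step. With arrays centred on their medians the majority turned, with 5 more positive and 10 more negative. Without replicate 1, 2 or 3 of every group limma passed 2, 0 (1754 at an unadjusted p under 0.05) and 1.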

How the data were processed

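The deposited table holds log2 intensities per probe set of Affymetrix Mouse Gene 1.1 ST arrays. Partek and RMA, which corrects background, normalises and summarises probes, are named in the submitters' processing notes, without versions. The values ran from 1.67 to 13.19 and array medians from 4.02 to 4.13. Of 28815 probe sets, 21153 carried 1 gene symbol, and keeping the brightest set per gene gave 18781 genes, with no filter on dim ones. The files give no background level, and the genome build of the array annotation is not given in the sources used here. A single limma model (version 3.58.1, R 4.3.3, lmFit then eBayes, two-sided) without covariates held all 27 arrays in 9 groups of 3, and the code was tested on simulated data. Precision is limited by having 3 arrays per group. The 30 gene lists hold 686 entries, of which 57 were not measured, and are described by counts and medians.

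The genes named are the 12 highest and 12 lowest called genes whose arrays did not overlap, up to 5 called members per list with the smallest p (the 2 with the smallest p where fewer than 2 were called), the 6 highest and 6 lowest genes in the test between the day-long steps, and a fixed panel. Genes outside this rule, namely Pcna, Cdk1, Cdc20 and the helicase subunits besides Mcm5, are said to have been read after their values had been seen. The members and lists were chosen with earlier results of these data known. Alternatives were the replicate block, only the arrays compared, genes above the median mean (4.76), averaging the probe sets of each gene, centring, quantile normalization, array weights, a variance both trended and robust, and leaving out replicates or single arrays. Promoters came from RefSeq (GRCm38.p6) by symbol. Python 3.11.15 with pandas 2.3.3 and matplotlib 3.10.9 made tables and plots.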

Additional observations from a re-analysis of the deposited data

Results flagged for a closer look

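A total of 22 genes changed differently from 24 h to 48 h than from 12 h to 36 h, by limma's test of the difference between the steps (16 with the more positive change in the later step, 6 with the more negative one; with centred arrays 5 and 10). The 6 highest and 6 lowest are given here, each as the later change minus the earlier one with its limma adjusted p. Among acute-phase genes these were Orm2, at 1.30 ± 0.25 (adjusted p = 0.0342; may share probes with Orm1), and Hp, haptoglobin, at 1.00 ± 0.12 (0.000424). From 12 h to 36 h they changed by -1.48 and -0.95, and from 24 h to 48 h by -0.18 and 0.049. Acta2, smooth muscle actin, stood at 0.89 ± 0.17 (0.0346) and the replication helicase subunit Mcm5 at 0.76 ± 0.15 (0.0353). Dctd, dCMP deaminase of thymidine nucleotide synthesis, stood at 0.72 ± 0.14 (0.0346) and the matrix protein gene Sned1 at 0.68 ± 0.13 (0.0342).

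In the other direction were Tlcd3b at -0.67 ± 0.11 (limma adjusted p = 0.0093), the fatty acid desaturase Scd3 at -0.63 ± 0.12 (0.0346; may share probes with other Scd genes), and Tuba8 at -0.61 ± 0.10 (0.0136). Ephx1, microsomal epoxide hydrolase, stood at -0.60 ± 0.12 (0.0476), the milk fat globule protein Mfge8 at -0.58 ± 0.11 (0.0334) and Lce6a at -0.56 ± 0.11 (0.0426), the last with group means near the lower end of the scale. With only the 12 arrays of these groups in the model limma called 0 genes (1456 at an unadjusted p under 0.05), and without replicate 2 of every group also 0 (1754). Each of the 12 genes named here lost its call in at least 1 alternative: the highest limma adjusted p over the alternatives was 0.19 for Hp, whose lowest was 1.16e-05, and lay between 0.198 and 0.426 for the other genes.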

How the results depend on the processing

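Of 110 named genes called from 12 h to 36 h, 41 kept their call in all 17 alternatives, 69 lost it in at least 1 and 0 changed direction; 71 kept it without any 1 of the 6 arrays compared. With only the arrays compared in the model the counts of called genes were 257 from 12 h to 36 h (1242 with all arrays), 28 from 24 h to 48 h (274), 188 from 12 h to 24 h (550), 0 from 24 h to 36 h (29; 1361 at an unadjusted p under 0.05 in limma) and 0 for the difference of the steps (22; 1456 unadjusted in limma). Array weights gave 2766 from 12 h to 36 h, 551 from 24 h to 48 h, 1365 from 24 h to 36 h and 152 for the difference; the weights of the 36 h arrays were 0.335, 0.470 and 3.880. Genes above the median mean alone gave 849 from 12 h to 24 h and 76 for the difference, and a trended and robust variance 61 for the difference. Without replicates the counts ranged from 330 (without replicate 2 of every group; 512 without replicate 3) to 1299 from 12 h to 36 h, 40 to 134 from 24 h to 48 h, 0 to 2 for the difference, 32 to 243 from 12 h to 24 h, 0 to 10 from 24 h to 36 h and 1503 to 2310 from untreated to 6 h. The causes were not tested. Centring moved the share of higher genes from 47.3% to 58.5% from 12 h to 36 h, from 48.9% to 33.7% from 24 h to 48 h, from 43.3% to 58.0% from 12 h to 24 h, from 50.6% to 76.5% by 6 h and from 72.7% to 33.3% for the difference, where quantile normalization gave 60.6%. The medians of 5 lists that lie within 0.03 of 0 changed sign with centring, among them PPARγ targets (-0.015 and 0.0050).

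No label states that replicate numbers pair the samples. Same-numbered arrays at 12 h and 36 h deviated from their group means with r of -0.285, -0.178 and -0.096, and differently numbered ones with r from -0.073 to 0.259. At 24 h and 48 h the same-numbered arrays gave -0.035, -0.037 and 0.050. Deviations from means of 3 arrays cannot show whether such arrays shared a culture. With the replicate block 887 genes were called from 12 h to 36 h, 156 from 24 h to 48 h, 5 for the difference, 350 from 12 h to 24 h and 14 from 24 h to 36 h, and 15 named genes lost their call.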

Other observations

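Other groups held calls in both directions or few calls from 12 h to 36 h. Of 22 glycolysis and glycogen genes 3 rose and 2 fell, among them Gbe1, the glycogen branching enzyme (0.37 ± 0.077, limma adjusted p = 0.00365). Of 22 glucocorticoid-responsive genes 3 rose and 1 fell. Of 26 lysosomal genes 3 rose and 0 fell, led by Lipa, lysosomal acid lipase (0.48 ± 0.081, limma adjusted p = 0.000451). Of 24 antioxidant genes 2 rose and 1 fell, with Srxn1, sulfiredoxin, at 0.36 ± 0.076 and the quinone reductase Nqo1 at -0.49 ± 0.11 (limma adjusted p = 0.0047 and 0.00724); the call of Nqo1 ended without 12 h replicate 2 (0.0584). Of 21 branched-chain amino acid genes 1 rose and 2 fell, and of 25 adipocyte transcription factors and coregulators 1 rose, Rxrb (0.22 ± 0.062, limma adjusted p = 0.0328), whose call ended without 12 h replicates 1 or 2 or 36 h replicate 1 (0.0894 to 0.147).

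Several secreted factors were lower at 36 h. Of 19 adipokines and secreted factors 3 fell and 0 rose (15.8% called, against 6.61% of all genes). Agt, which encodes the precursor of angiotensin, changed by -0.37 ± 0.072, and Igf1, insulin-like growth factor 1, by -0.40 ± 0.074 (limma adjusted p = 0.00218 and 0.00107). Of 21 insulin and glucose uptake genes 1 rose and 3 fell, with the growth factor binding protein Igfbp7 at -0.42 ± 0.063 (limma adjusted p = 0.000125). Of 17 lipolysis and receptor genes 3 fell and 0 rose (17.6% called), among them the lactate receptor Hcar1 (-0.41 ± 0.086, limma adjusted p = 0.00369). Of 21 amino acid stress and unfolded protein genes 4 fell and 0 rose, including Phgdh, the entry enzyme of serine synthesis (-0.36 ± 0.073, limma adjusted p = 0.0033). Of 27 interferon genes 1 rose and 1 fell, a share called of 7.41%, close to that of all genes. The lower one was Usp18, a brake on interferon signalling (-0.67 ± 0.13, limma adjusted p = 0.00302).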
